A study of Mus musculus with 4 samples.

Results

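The genes described here carry out the making and use of small RNAs. They are Drosha and Dgcr8, Xpo5, Dicer1 and Tarbp2, and the Argonautes Ago1, Ago2, Ago3 and Ago4. They were chosen by name, 9 in all, and 8 of them were read from a table of 30049 Ensembl genes. Ago2 was not analysed here. Zygotes from BDF1 mice crossed to each other (F2 embryos, wild type) were kept for 24 h in KSOM medium, made for preimplantation embryos, either without an added agent (control) or with 2% dimethyl sulfoxide (DMSO), a common drug solvent. RNA of embryos that had reached the 2-cell stage was sequenced, with 50 embryos collected for a group and 2 libraries in each group. Whether the libraries of a group came from separate cultures is not stated, so the p-values below measure the spread between these libraries, which may be technical.

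In the animal cell, a primary microRNA transcript is cut in the nucleus by the Microprocessor, made of the nuclease Drosha and its RNA-binding partner Dgcr8. The hairpin is carried to the cytoplasm by exportin-5 (Xpo5), and Dicer (Dicer1), helped by the double-stranded RNA-binding protein Tarbp2, cuts it to a short duplex. An Argonaute takes up one strand and represses the mRNAs that pair with it. Mouse oocytes and early embryos are known for weak microRNA activity and for small interfering RNAs made by Dicer from long double-stranded RNA, and the oocyte also uses a shorter form of Dicer that starts within the gene. The deposited values are sums over all transcripts of a gene, so the forms of Dicer1 cannot be told apart.

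The values are TPM, a unit that corrects reads for the length of the transcript and for the library total, so that levels of different genes can be compared. The table held no row that the annotation classes as a microRNA gene (0 of 29589 annotated rows), and mature small RNAs were not measured. The rows added up to between 768174 and 799166 TPM in a library. The 20 most abundant genes held 22.15% and 23.6% of this sum in control embryos and 29.4% and 35.1% under DMSO, and the part of this difference in the fold changes below was not tested beyond the other scalings. The read depth behind each value is unknown, because TPM keeps no depth. In RNA from whole embryos, fewer cells with a transcript and less of it in each cell cannot be told apart.

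The labelled stage was checked against marker genes. Of 11 oocyte transcripts that persist in early embryos, 10 had a mean of at least 1 TPM. Oosp1, an oocyte-secreted protein, was the most abundant, at 877 and 576 TPM in control embryos and 2086 and 1763 TPM under DMSO. Nlrp5, a gene of the maternal subcortical complex, was listed at 0 or near 0 in every library, its highest value being 0.142 TPM. Of 14 genes known to be active at the 2-cell stage, 12 had a mean of at least 1 TPM, with Tcstv3 the most abundant at 297 and 209 TPM in control embryos and 716 and 574 TPM under DMSO. Cumulus and granulosa cells surround the zygote at collection. Of their 15 markers 3 reached a mean of 1 TPM, namely Amhr2, Nr5a2 and Cyp11a1, while the defining genes Amh and Inhba were listed at 0 in every library. The sum of the 15 markers was 52.7 and 39.3 TPM in control embryos and 42.7 and 40.2 TPM under DMSO, so the groups overlapped. Its main members differed in direction. Amhr2, the receptor of anti-Müllerian hormone, fell from 36.8 and 29.6 TPM to 8.29 and 16.5 TPM (limma adjusted p = 0.0442), and Nr5a2, a nuclear receptor that the early embryo also uses, was at 12.1 and 7.03 TPM in control embryos and at 29.3 and 19.9 TPM under DMSO (limma adjusted p = 0.0516). Of 7 sperm markers 2 reached a mean of 1 TPM. The sum of the 7 was 2.96 and 3.38 TPM in control embryos against 13.5 and 8.69 TPM under DMSO, most of it from Prm2. limma called both genes that reached 1 TPM, Prm2 and Tnp1, higher, where 6.42% of all genes tested were called higher. Tnp1 was at 0.281 and 0 TPM in control embryos and at 2.08 and 1.69 TPM under DMSO. It reached a mean of 1 TPM only through the DMSO libraries, so its call adds no support. The 7 blood markers summed to 12.7 and 4.61 TPM in control embryos and to 11.1 and 25.9 TPM under DMSO.

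None of the 8 genes passed the test between DMSO-treated and control embryos. The test was limma on log2(TPM + 1), which fits every gene and steadies each variance estimate with those of the others. It ran over 12038 genes whose mean reached 1 TPM, and p-values were adjusted by Benjamini-Hochberg, with calls at 0.05. limma called 0 of the 8 genes, also at an unadjusted p-value under 0.05. Over all genes tested the background was 20.5% called, and 40.2% by the unadjusted p-value. The median log2 fold change of the 8 genes was -0.21, against -0.089 over all genes tested, and 6 of them had negative and 2 positive values. The groups did not overlap for 5 of the 8, namely Dicer1 and Ago4 with higher and Dgcr8, Xpo5 and Tarbp2 with lower DMSO values, and they did not overlap for 69.8% of all genes tested. An exact permutation test of 1 gene, two-sided, has a smallest possible p-value of 0.33 in this design. Of the genes called over the whole table, 31.3% were higher in DMSO-treated embryos, and this share was 49.0% after quantile normalization.

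**Figure D1:**
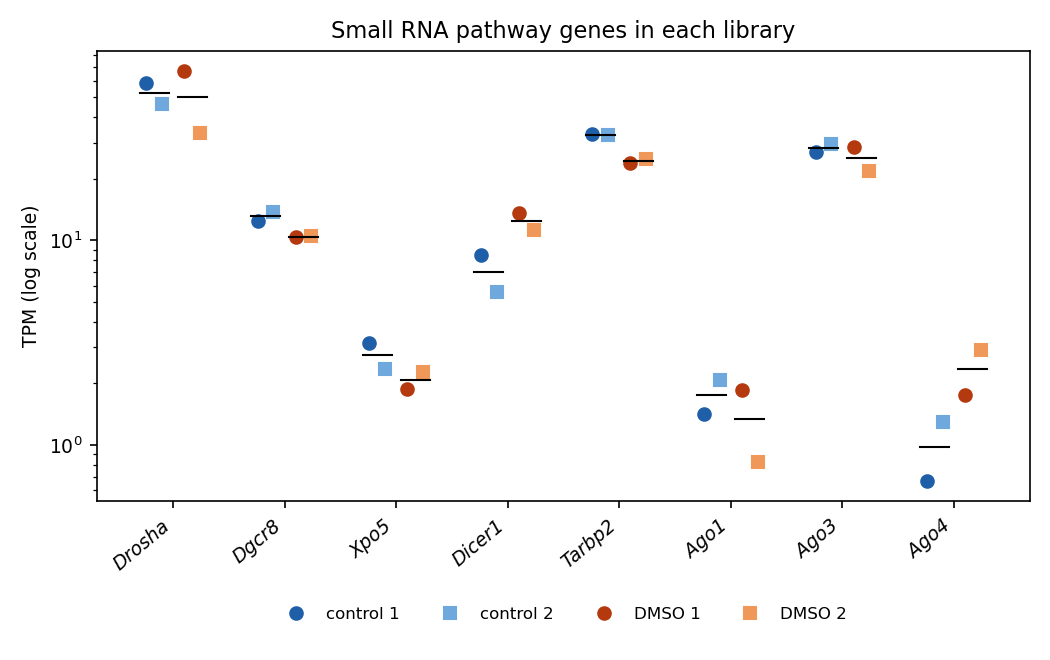
TPM of each gene in the 4 libraries on a log axis, with circles for replicate 1, squares for replicate 2 and a short line at the mean of each group. By their mean over the 4 libraries Drosha is the most abundant and Ago1 and Ago4 are the least, and the DMSO libraries lie above both control libraries for Dicer1 and Ago4.

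The levels spread from about 1 to more than 50 TPM. In control embryos the order was Drosha (52.4 ± 9.0 TPM), Tarbp2 (32.7 ± 0.192), Ago3 (28.2 ± 1.97), Dgcr8 (13.1 ± 0.839), Dicer1 (7.01 ± 2.00), Xpo5 (2.75 ± 0.577), Ago1 (1.75 ± 0.464) and Ago4 (0.982 ± 0.445), each as the mean ± SD of n = 2 libraries. In this group no gene's range met that of its neighbour in the order. In DMSO-treated embryos the order was Drosha (50.2 ± 23.6 TPM), Ago3 (25.2 ± 4.74), Tarbp2 (24.4 ± 0.897), Dicer1 (12.5 ± 1.69), Dgcr8 (10.4 ± 0.0481), Ago4 (2.34 ± 0.823), Xpo5 (2.08 ± 0.277) and Ago1 (1.34 ± 0.721), again with n = 2. Here Ago3 and Tarbp2 could not be separated, nor could Ago4 and Xpo5. By mean TPM over the 4 libraries, Drosha stood at percentile 82.3 of the genes tested, Dicer1 at 52.3 and Ago1 at 10.4.

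Drosha, the catalytic subunit of the Microprocessor (ENSMUSG00000022191, chromosome 15 of GRCm38 from 12824815 to 12935291), was at 58.8 and 46.1 TPM in control embryos and at 66.9 and 33.6 TPM under DMSO. The DMSO libraries held the highest and the lowest of these values, so the groups overlapped fully. The log2 fold change of Drosha was -0.13 (SE 0.38, adjusted p = 0.811 by limma), with a 95% interval from -1.04 to 0.78, and its sign changed to 0.14 after quantile normalization. Dgcr8, which recognises the hairpin for Drosha (ENSMUSG00000022718, chromosome 16 from 18253948 to 18289246), was at 12.5 and 13.7 TPM in control embryos and at 10.4 TPM in each DMSO library. Both DMSO values lay below both control values. The log2 fold change of -0.30 (SE 0.29, adjusted p = 0.453 by limma, 95% interval -0.99 to 0.38) did not pass the test. The ratio of Drosha to Dgcr8 TPM was 4.71 and 3.37 in control embryos and 6.45 and 3.22 under DMSO, which overlapped. Of the 31-base words of the Dgcr8 transcripts 16.9% are found in other genes as well, against 1.42% for Drosha, and the authors' program splits reads that such words cannot place.

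Xpo5, the carrier of hairpin precursors out of the nucleus (ENSMUSG00000067150, chromosome 17 from 46202782 to 46243598), was at 3.16 and 2.35 TPM in control embryos and at 1.88 and 2.27 TPM under DMSO. The second control and the second DMSO library differed by less than the control libraries did from each other. Its log2 fold change was -0.28 (SE 0.34, adjusted p = 0.554 by limma). Per TPM of Xpo5 there were 18.6 and 19.6 TPM of Drosha in control embryos and 35.6 and 14.8 under DMSO.

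Dicer1 and Tarbp2 act together, and their values pointed in opposite directions. Dicer1, the nuclease that cuts hairpins and long double-stranded RNA (ENSMUSG00000041415, chromosome 12 from 104687742 to 104751952), was at 8.42 and 5.59 TPM in control embryos and at 13.7 and 11.3 TPM under DMSO. Its log2 fold change of 0.77 (standard error 0.33) was close to the 0.75 of Ago4, which had the larger value with a pseudocount of 0.1 (1.20 against 0.84), and it missed the threshold with an unadjusted p = 0.0564 and limma adjusted p = 0.134. The 95% interval ran from -0.028 to 1.56. Without any one library the log2 fold change lay between 0.51 and 1.02. Tarbp2, the partner that binds the RNA duplex beside Dicer (ENSMUSG00000023051, chromosome 15 from 102518192 to 102523676), was at 32.8 and 32.6 TPM in control embryos and at 23.7 and 25.0 TPM under DMSO. Each group held close values and the groups stood apart, for a log2 fold change of -0.41 (SE 0.26, adjusted p = 0.273 by limma, 95% interval -1.04 to 0.22). For Tarbp2 16.6% of the 31-base words are shared with other genes, and for Dicer1 1.76%. The ratio of Dicer1 to Tarbp2 TPM, which does not depend on the scaling of a library, was 0.256 and 0.172 in control embryos and 0.575 and 0.450 under DMSO. With Dicer1 apart upwards and Tarbp2 apart downwards the ratios of the groups had to separate, so the ratio adds no support to either difference. Prkra, the other double-stranded RNA-binding partner of Dicer, was listed at 0 and 0.173 TPM in control embryos and at 0.527 and 0 TPM under DMSO, too low to be tested. It was named for its role after its values had been seen.

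The summed oocyte markers and the summed 2-cell markers were also higher in both DMSO libraries. The 11 oocyte markers summed to 1233 and 788 TPM in control embryos and to 3091 and 2354 TPM under DMSO, most of it from Oosp1. Of the 10 tested, 8 were higher in both DMSO libraries than in both controls, and 1, Zp3, was lower in both. limma called 2 of the 10, both higher. The 14 genes of the 2-cell stage summed to 1132 and 761 TPM in control embryos and to 2619 and 1824 TPM under DMSO. Of the 12 tested, 7 were apart with higher DMSO values, and limma called 4 of the 12, all higher. Over all genes tested, 31.1% were apart with higher DMSO values and 6.42% were called higher. The part of these transcripts in the Dicer1 values was not tested. By the root-mean-square difference of log2(TPM + 1) over the 4 libraries, the genes most like Dicer1 in level and pattern were Zfp709 (0.0689), Rab27a (0.0695) and Ric1 (0.0877). Those most like Drosha, the most abundant of the 8, were Cnot2 (0.0906), Camsap1 (0.136) and Ctsh (0.139).

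**Figure D2:**
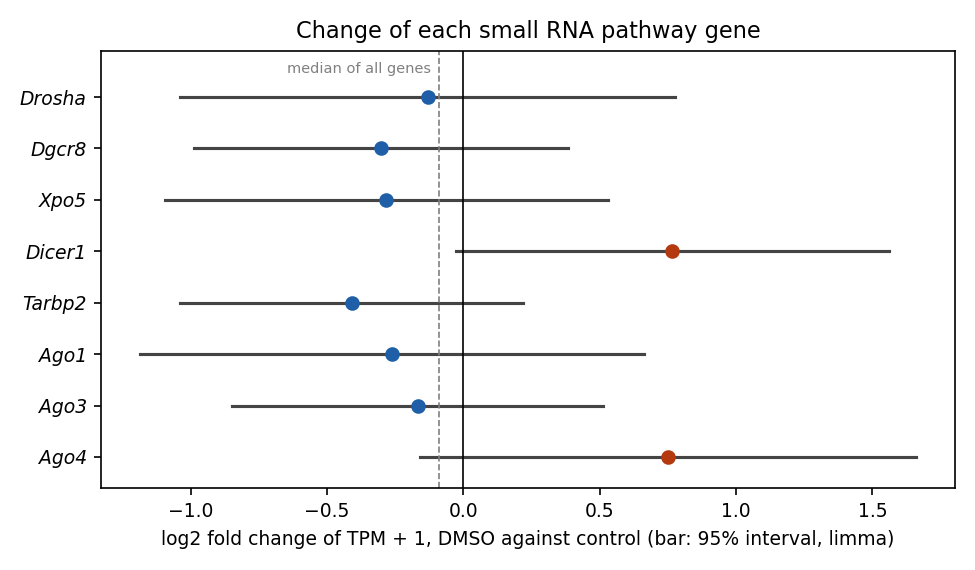
Log2 fold change of TPM + 1 for each gene between DMSO-treated and control embryos, with the 95% interval from limma as a bar, red for values above 0 and blue below, and a dashed line at the median of all genes tested. All 8 intervals include 0, and Dicer1, at 0.77 with an interval from -0.028 to 1.56, comes nearest to leaving it.

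Ago3 was far more abundant than Ago1 and Ago4 in every library. Ago3, Ago1 and Ago4 lie in a row on the minus strand of chromosome 4, within 201769 bases, and 5455 bases separate Ago3 from Ago1 and 20957 bases Ago1 from Ago4. Ago3 (ENSMUSG00000028842, from 126331704 to 126429556), which binds small RNAs as its paralogs do, was at 26.8 and 29.6 TPM in control embryos and at 28.6 and 21.9 TPM under DMSO. The groups overlapped, and the log2 fold change was -0.17 (SE 0.28, adjusted p = 0.679 by limma), or 0.034 after quantile normalization. Its 95% interval, from -0.85 to 0.51, did not reach a 2-fold change in either direction. Ago1 (ENSMUSG00000041530, from 126435012 to 126468583) was at 1.42 and 2.08 TPM in control embryos and at 1.85 and 0.825 TPM under DMSO, for a log2 fold change of -0.26 (SE 0.39, adjusted p = 0.632 by limma). Its groups overlapped too. Ago4 (ENSMUSG00000042500, from 126489541 to 126533472), known for a role in male germ cells, was at 0.667 and 1.30 TPM in control embryos and at 1.76 and 2.92 TPM under DMSO. The DMSO values were both above the control values, for a log2 fold change of 0.75 (SE 0.38, adjusted p = 0.184 by limma, 95% interval -0.16 to 1.66), on a scale that understates changes of genes with so few TPM.

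The Argonaute transcripts measured were mostly Ago3. The sum of the 3 genes was 28.9 and 33.0 TPM in control embryos and 32.2 and 25.6 TPM under DMSO, and the groups overlapped. Ago3 made up 92.8% and 89.8% of it in control embryos and 88.8% and 85.4% under DMSO. Ago1 made up 4.92% and 6.30% against 5.74% and 3.22%. The share of Ago4 was 2.31% and 3.93% in control embryos and 5.47% and 11.4% under DMSO, so that for Ago3 and Ago4 the shares of the groups did not overlap. The TPM of Ago3 did overlap, and a larger share of Ago4 lowers that of Ago3. The shares therefore add no support to the Ago4 difference, which was not called. The share of each in all Argonaute transcripts is not given, since Ago2 was not analysed here.

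**Figure D3:**
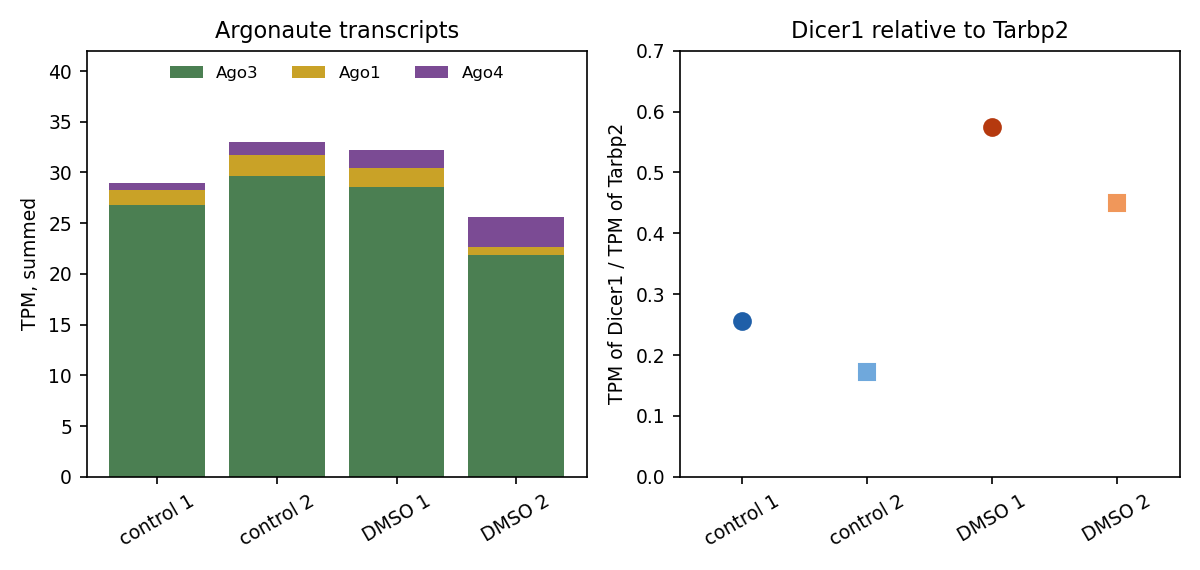
Left, TPM of Ago3, Ago1 and Ago4 stacked in each library. Right, TPM of Dicer1 divided by that of Tarbp2 in each library. Ago3 fills at least 85.4% of every bar, and the ratios of the DMSO libraries (0.575 and 0.450) are above those of the control libraries (0.256 and 0.172).

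The bases just before the start sites are shown for the Argonaute cluster, where Ago3 stands above its paralogs in level, and for Dicer1 and Tarbp2, whose values pointed apart. Each line gives 150 bases, ending at the base before the start site that RefSeq annotates on GRCm38.p6, 5′ to 3′ on the strand of the gene. Capitals mark matches to CCAAT or GGGCGG on either strand, and adjoining capitals can hold overlapping matches. For Ago1, RefSeq gives another start site upstream, whose 250-base window had a GC content of 72.4% and which is not printed. The positions are chr4:126429543-126429692 for Ago3, chr4:126468584-126468733 for Ago1, chr4:126533459-126533608 for Ago4 and chr12:104751953-104752102 for Dicer1, all on the minus strand, and chr15:102518042-102518191 on the plus strand for Tarbp2.
Ago3: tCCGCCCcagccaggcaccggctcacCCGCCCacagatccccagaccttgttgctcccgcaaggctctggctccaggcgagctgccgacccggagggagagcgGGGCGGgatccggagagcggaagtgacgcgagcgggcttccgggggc
Ago1: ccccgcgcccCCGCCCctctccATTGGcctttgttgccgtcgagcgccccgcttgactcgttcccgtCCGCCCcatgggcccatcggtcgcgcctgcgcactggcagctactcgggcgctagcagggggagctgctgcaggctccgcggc
Ago4: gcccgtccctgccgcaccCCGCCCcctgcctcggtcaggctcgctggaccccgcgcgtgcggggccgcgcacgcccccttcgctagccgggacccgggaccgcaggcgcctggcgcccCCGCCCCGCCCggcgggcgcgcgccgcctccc
Dicer1: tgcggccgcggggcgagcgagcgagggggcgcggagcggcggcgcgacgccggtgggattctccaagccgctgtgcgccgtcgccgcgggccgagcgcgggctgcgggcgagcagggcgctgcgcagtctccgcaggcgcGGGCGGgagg
Tarbp2: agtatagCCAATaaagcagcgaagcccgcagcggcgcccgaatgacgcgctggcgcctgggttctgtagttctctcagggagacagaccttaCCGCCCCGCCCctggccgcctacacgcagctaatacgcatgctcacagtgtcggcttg

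Over the 250 bases before the start site, the 8 genes were all richer in G and C than the median promoter. GC content was 73.6% for Ago3, 74.4% for Ago1, 85.6% for Ago4, 76.0% for Dicer1 and 60.0% for Tarbp2, and the median of 32851 RefSeq promoters was 52.4%. GGGCGG, the core of the GC box, occurred 4 times for Ago3, 2 times for Ago1, 5 times for Ago4, once each for Dicer1, Dgcr8 and Xpo5, 3 times for Tarbp2 and not at all for Drosha, on either strand, and 32.7% of all promoters hold it at least once. CCAAT occurred in none of the windows of Ago3, Ago4 and Xpo5, once for Ago1 and Dicer1, 3 times for Drosha and Tarbp2 and 4 times for Dgcr8, and 33.8% of all promoters hold it. TATAAA was found in none of the 8 windows and in 12.4% of all promoters, and CACGTG in none and in 6.02%. Ago3 and Ago4, which differ in level, both held GGGCGG and no CCAAT in this window. These are matches of letters and not tested sites, and start sites used in the embryo were not measured.

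Around these genes the pathway has many helpers, and limma called some of them. Of 27 regulators of small RNA processing, export and decay, 26 had a row and 23 were tested. limma called 6 of the 23, or 26.1%, all of them lower in DMSO-treated embryos, and over all genes tested 14.1% were called lower and 6.42% higher. The median log2 fold change of the 23 was -0.17. Srsf3, a splicing factor that also helps the Microprocessor to recognise its substrates, fell from 101 and 146 TPM in control embryos to 32.6 and 36.6 TPM under DMSO (log2 fold change -1.79, limma adjusted p = 0.0207). Xpo1, the exportin of many proteins and of capped hairpin precursors, fell from 251 and 292 TPM to 99.1 and 121 TPM (log2 fold change -1.30, limma adjusted p = 0.0250). In contrast to Xpo5, it was among the abundant transcripts of these embryos.

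Another 3 of the 6 genes are Tsn, Xrn2 and Eri1. Tsn encodes translin, which forms with Tsnax the nuclease C3PO that clears the passenger strand from Argonaute. It fell from 62.4 and 80.1 TPM to 6.06 and 13.3 TPM (log2 fold change -2.84, SE 0.40, adjusted p = 0.0181 by limma). Its partner Tsnax was at 21.2 and 18.5 TPM in control embryos and at 20.3 and 15.2 TPM under DMSO, with overlapping groups (log2 fold change -0.17, limma adjusted p = 0.694). The nuclear exonuclease Xrn2 fell from 66.5 and 79.5 TPM to 32.6 and 31.6 TPM (log2 fold change -1.16, limma adjusted p = 0.0320). Eri1, an exonuclease that trims histone mRNA and small RNAs, fell from 10.1 and 12.3 TPM to 4.96 and 4.25 TPM (log2 fold change -1.12, limma adjusted p = 0.0488). For both genes every DMSO value lay below every control value. The Eri1 call was lost with other scalings, where its limma adjusted p was 0.0556 with median ratios and 0.0561 with quantiles, and without a variance trend (0.0502). The Xrn2 call was lost with quantiles (limma adjusted p = 0.0582), which left 4 of the 6 calls of the list.

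Trim71, an RNA-binding protein whose mRNA is a classic target of the let-7 microRNA, fell from 15.5 and 21.8 TPM to 3.97 and 4.66 TPM (log2 fold change -1.87, limma adjusted p = 0.0217). Ran, the GTPase that drives export by Xpo5, was at 19.4 and 36.1 TPM in control embryos and at 1.86 and 16.9 TPM under DMSO (log2 fold change -1.94, limma adjusted p = 0.126). Its log2 fold change was -0.62 without DMSO replicate 1 and -3.26 without DMSO replicate 2. On the log2 scale the DMSO libraries differed from each other by more than the group means did, and 18.8% of the 31-base words of Ran are shared with other genes. Lin28a, which blocks the maturation of let-7, was at 6.51 and 4.12 TPM in control embryos and at 8.66 and 8.97 TPM under DMSO (log2 fold change 0.66, limma adjusted p = 0.186). The uridylating enzymes Tut4 and Tut7, which tag hairpins and mRNAs for decay, were not called either. Tut4 was at 7.76 and 7.99 TPM in control embryos and at 4.61 and 11.3 TPM under DMSO, and Tut7 was at 11.9 and 15.1 TPM against 7.5 and 8.83 TPM (log2 fold change -0.66, limma adjusted p = 0.156). Tsnax, Lin28a, Tut4 and Tut7 were named for their roles after their values had been seen.

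Chaperones load the small RNA duplex into Argonaute. Of 10 such genes 9 had a row and were tested, and limma called 1, or 11.1%, which was lower, where 14.1% of all genes tested were called lower. It was Fkbp4, a co-chaperone of Hsp90, which fell from 5.85 and 3.84 TPM to 0.483 and 1.38 TPM (log2 fold change -1.61, adjusted p = 0.0382 by limma). A pseudocount of 0.1 gave it a limma adjusted p of 0.0506. Its mean under DMSO was 0.933 TPM, so it passed the filter of 1 TPM only through the control libraries. Hspa8, the constitutive Hsp70 protein, was at 284 and 459 TPM in control embryos and at 162 and 184 TPM under DMSO (log2 fold change -1.06, limma adjusted p = 0.0526), and 44.8% of its 31-base words occur in other genes, so its value is uncertain. Hsp90ab1, an Hsp90 protein, was at 7.76 and 18.4 TPM against 4.35 and 6.0 TPM, and Stip1, which links Hsp70 with Hsp90, at 271 and 243 TPM against 180 and 147 TPM. Their limma adjusted p-values were 0.119 and 0.105. Over the 9 genes the log2 fold changes had a median of -0.34.

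**Figure D4:**
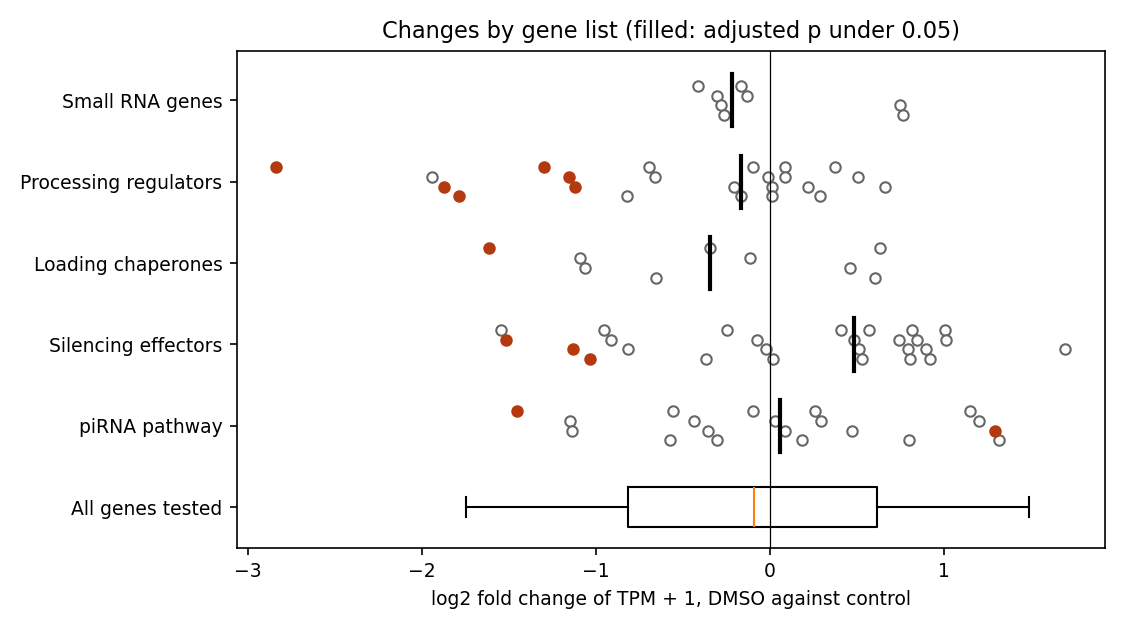
Log2 fold change of TPM + 1 for every tested gene of each list, filled where the limma adjusted p-value was under 0.05, with a black bar at the list's median. The bottom row is a box of the quartiles of all 12038 genes tested, with whiskers from the 5th to the 95th percentile. The 8 small RNA genes hold no filled point and lie between -0.41 and 0.77, and the filled points of the other lists lie to the left except Tex15.

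Downstream of Argonaute, GW182 proteins (Tnrc6a, Tnrc6b and Tnrc6c) recruit deadenylases and decapping factors to the mRNA. Of 29 such effectors 27 were tested. limma called 3, or 11.1%, all lower, where 20.5% of all genes tested were called and 14.1% called lower, and 16 of the 27 had positive values. Their median log2 fold change was 0.49, and that of all genes tested -0.089. The groups stood apart with higher DMSO values for 13 of the 27 and with lower ones for 10, shares that are 31.1% and 38.7% over all genes tested. Ajuba, a LIM protein that binds Argonautes, fell from 11.0 and 9.08 TPM to 2.47 and 3.26 TPM (log2 fold change -1.51, limma adjusted p = 0.0291). Cnot8, a catalytic subunit of the CCR4-NOT deadenylase, fell from 35.0 and 35.9 TPM to 15.4 and 18.3 TPM (log2 fold change -1.04, limma adjusted p = 0.0432). Pabpc1, the poly(A)-binding protein, fell from 381 and 459 TPM to 148 and 245 TPM (log2 fold change -1.13, limma adjusted p = 0.0493). After quantile normalization neither Cnot8 (limma adjusted p = 0.0727) nor Pabpc1 (0.0934) was called, and the calls of the list were Ajuba lower and Pan3 and Dcp2 higher. The calls of Cnot8 and Pabpc1 were also lost without a variance trend and with median-ratio scaling. That of Pabpc1 was lost with a pseudocount of 0.1 as well (limma adjusted p = 0.0567). Of the 31-base words of Pabpc1 16.2% are shared with other genes, and of those of Cnot8 11.7%.

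Among the effectors that were not called, the 3 GW182 genes had higher values in both DMSO libraries than in both control libraries. This held for 13 of the 27 effectors tested and for 31.1% of all genes tested. The GW182 genes and Cnot7 were named for their roles, and Pan3 and Dcp2 for their calls, after their values had been seen. Tnrc6a was at 2.95 and 2.59 TPM in control embryos and at 4.60 and 3.48 TPM under DMSO (log2 fold change 0.41, limma adjusted p = 0.379). Tnrc6b was at 6.55 and 3.91 TPM against 13.3 and 8.33 TPM (log2 fold change 0.92, limma adjusted p = 0.123). Tnrc6c was at 4.75 and 3.63 TPM against 10.0 and 7.42 TPM (log2 fold change 0.90, limma adjusted p = 0.0948). The deadenylase subunit Cnot6l, known for its part in clearing maternal mRNA, was at 29.6 and 11.7 TPM in control embryos and at 107 and 36.7 TPM under DMSO. Its log2 fold change was 1.70, with a standard error of 0.60 and a limma adjusted p of 0.0863, and it ran from 0.94 without DMSO replicate 1 to 2.46 without DMSO replicate 2. Replicate 1 was higher than replicate 2 by more than 2-fold in both groups. Cnot7, the paralog of Cnot8, was at 271 and 172 TPM against 516 and 254 TPM, with overlapping groups (log2 fold change 0.74, limma adjusted p = 0.212). The RNA helicase Ddx6 was at 4.10 and 13.0 TPM in control embryos and at 1.96 and 1.83 TPM under DMSO (log2 fold change -1.55, limma adjusted p = 0.0731). Without control replicate 1 it was -2.27, and without control replicate 2 it was -0.82.

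The piRNA pathway guards the germ line with PIWI proteins, relatives of the Argonautes that use longer small RNAs made without Dicer. Of 23 genes 22 had a row and 20 were tested, and limma called 2, or 10%, 1 in each direction, where 20.5% of all genes tested were called. The median log2 fold change was 0.061. Piwil2, a PIWI protein, fell from 11.7 and 12.1 TPM to 3.24 and 4.24 TPM (log2 fold change -1.45, limma adjusted p = 0.0294). Its paralog Piwil1 was at 1.30 and 0.462 TPM in control embryos and at 4.71 and 2.67 TPM under DMSO (log2 fold change 1.32, limma adjusted p = 0.0644). Tex15, which acts in piRNA-guided silencing of transposons, rose from 61.4 and 40.6 TPM to 146 and 105 TPM (log2 fold change 1.29, limma adjusted p = 0.0382). Without a variance trend its limma adjusted p was 0.0530. Pld6, a mitochondrial nuclease that makes piRNA precursors, was at 10.5 and 8.23 TPM against 2.94 and 4.46 TPM (log2 fold change -1.15, limma adjusted p = 0.0567). Mael, a germ granule protein, was at 40.1 and 20.5 TPM against 63.5 and 40.8 TPM, and its DMSO and control values were separated by less than 1 TPM (limma adjusted p = 0.180). Piwil1 and Mael were named after their values had been seen.

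**Figure D5:**
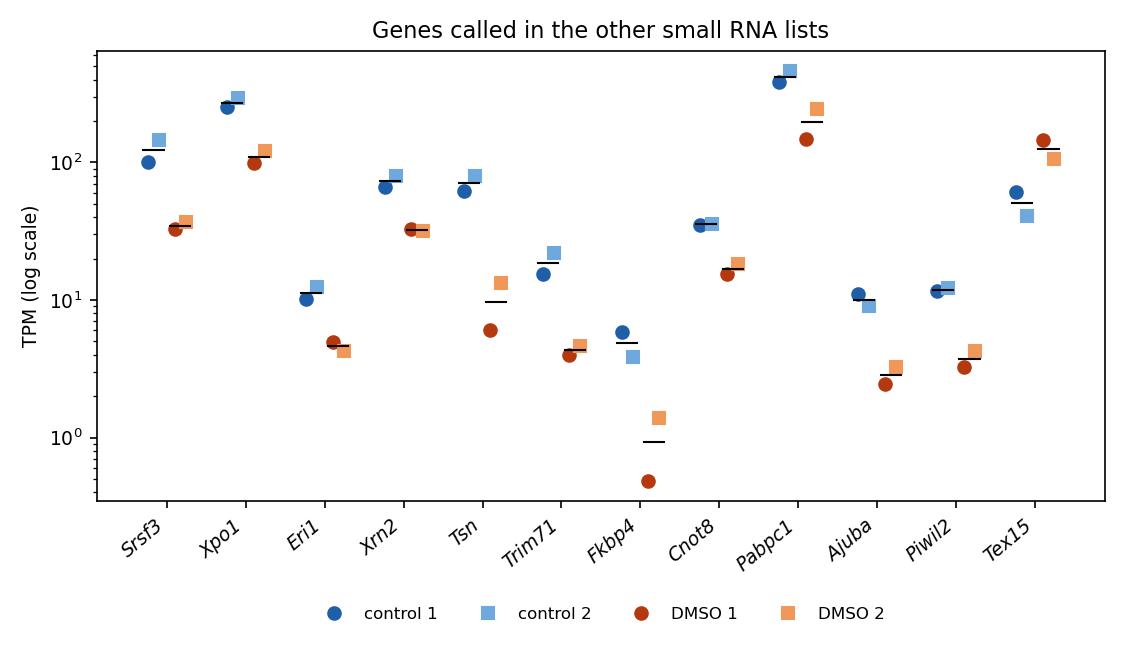
TPM in the 4 libraries, on a log axis, of the 12 genes called in the lists of helpers, effectors and piRNA genes, with circles for replicate 1, squares for replicate 2 and a short line at the mean of each group. The groups stand apart for all 12, and for 69.8% of all genes tested. The 12 were chosen by their calls in these same libraries, so this adds no support. Tex15 alone is higher under DMSO.

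None of the 12 calls held without each library in turn. Without control replicate 1, control replicate 2 or DMSO replicate 1, limma called 0 of the 12038 genes tested, and without DMSO replicate 2 it called 1883. Without DMSO replicate 2, 5 of the 12 were lost too, with limma adjusted p-values of 0.124 for Eri1, 0.0606 for Xrn2, 0.0619 for Cnot8, 0.0534 for Ajuba and 0.0518 for Piwil2, while Ran (0.0299) and Cnot6l (0.0472) were called. Without the filter on low values it also called 0 genes, of 22257 tested, although 5368 had an unadjusted p-value under 0.05. The log2 fold changes of the 12 genes kept their sign in each of these fits.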

How the data were processed

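RNA-seq of 2-cell mouse embryos was read from a table of TPM values that the authors deposited. They had run kallisto with Ensembl transcripts (GRCm38), and tximport added up the transcripts of a gene (versions not given in the sources used here). The submitters' processing notes also name STAR, SAMtools and bedtools. The authors tested for differential expression with DESeq2. The TPM values are not counts, so limma 3.58.1 in R 4.3.3 was used on log2(TPM + 1) with a mean-variance trend, no covariate and a mean TPM of 1 or more. The steps were tested on simulated data. Libraries were grouped by the sample labels.

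GENCODE M21 (GRCm38) gave names for 29589 of 30049 identifiers and all gene coordinates, and RefSeq (GRCm38.p6) the promoters, with an entry for each of the 8 genes. Shared sequence is the share of 31-base words, on either strand, found in other genes' transcripts. Python 3.11.15, pandas 2.3.3 and matplotlib 3.10.9 did the rest.

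The 9 genes and the lists were chosen with earlier results of these data known. Of each list, the called genes and the 3 largest absolute changes with a mean of at least 5 TPM are named, and any other gene is said to be chosen after its values were seen. The planned share of Ago2 was replaced by that of Ago3. Ago2, Srrt, Cdc37 and Fkbp6 were not analysed here.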

Additional observations from a re-analysis of the deposited data

How the results depend on the processing

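The 8 genes gave 0 calls with a pseudocount of 0.1, without the filter on low values, with a mean of at least 5 TPM (5 genes tested), without a variance trend, with median-ratio scaling, after quantile normalization and without any one library. The groups share replicate numbers, and same-numbered libraries deviated together (r = 0.354 across genes), but no label says that a number marks a shared batch and there are only 2 pairs. With the replicate block 1 of the 8 was called, Dicer1 (limma adjusted p = 0.0458), where 5132 of all 12038 genes tested were called. Of these 5132 genes 2151 were higher and 2981 lower. The block called 8 of the 23 regulators and 5 of the 9 loading chaperones. It called 12 of the 27 effectors (8 higher and 4 lower) and 8 of the 20 piRNA genes (5 higher and 3 lower). Without the filter on low values 0 genes were called in all and in each list. A pseudocount of 0.1 left 0 calls among the chaperones. With a mean of at least 5 TPM, calls were gained for Hspa8 (limma adjusted p = 0.0382) and the piRNA gene Pnldc1 (0.0397), both lower. In that fit 2450 of 7470 genes were called. Pnldc1 was named for this call after its values had been seen. Without a variance trend 1 effector and 1 piRNA gene, Piwil2, were called, and with median-ratio scaling 1 effector. Without any one library, calls ran from 0 to 1883 over all genes, from 0 to 5 for the regulators, from 0 to 1 for the chaperones, from 0 to 2 for the effectors and from 0 to 1 for the piRNA genes. These fits leave 1 library in a group, which is assumed to vary like the other group. The sign of the log2 fold change turned for Drosha and Ago3 after quantile normalization (0.14 and 0.034). Without any one library it ran from -0.62 to 0.36 for Drosha, from -0.58 to 0.059 for Ago1, from -0.35 to 0.019 for Ago3, from -0.66 to 0.47 for Tut4 and from -0.36 to 0.033 for Tsnax, and none of these genes was called in any of these fits. The Argonaute sum was lower in the DMSO group by a mean difference of -2.06 TPM, and the difference was 1.22 TPM without DMSO replicate 2. The cause of these changes was not tested. Since depth is unknown, how far it limits genes near 1 TPM, such as Ago1 and Ago4, could not be assessed.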
